A study of Homo sapiens with 6 samples.

Results

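The genes for eukaryotic translation initiation factors (EIF genes) were followed in HT-29 cells, a human colorectal adenocarcinoma line, after knockdown (KD) of the lncRNAs HOXA-AS3 or HOXB-AS3. Members were taken as the rows whose Entrez identifier maps to a protein-coding gene with a symbol from EIF1 to EIF6, leaving out the eIF2 kinases (EIF2AK genes) and the eIF4E-binding proteins (EIF4EBP genes), which are covered with the pathway. This gave 47 of the 27434 rows, holding 48 gene symbols because EIF3C and EIF3CL share a row. All cells carried 1 of 3 siRNA pools, a non-targeting pool (siNT), a pool against HOXA-AS3 (siHOXA-AS3) or a pool against HOXB-AS3 (siHOXB-AS3). Per the labels the pools were delivered at 10 nM with DharmaFECT 4 and the cells were collected at 48 hours. There were 2 libraries of polyA RNA per condition. HT-29 is an aneuploid tumour line, no untransfected cells were compared, and the labels do not say whether the libraries of a condition came from separate cultures, so that p-values measure only the spread between these libraries. The libraries were made to follow the wider transcriptome after either lncRNA is lowered, and the comparisons below read this for the machinery that starts protein synthesis.

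Initiation brings the small ribosomal subunit, the initiator methionyl-tRNA and the mRNA together and ends when the large subunit joins at the start codon. eIF2 carries the initiator tRNA and is recharged with GTP by eIF2B, eIF3 is the large scaffold on the small subunit, and eIF4E, eIF4G and eIF4A form the complex that recognizes the mRNA cap and unwinds the leader. In the intestinal epithelium and its tumours the pathway sits downstream of mTORC1 and of MYC, and many mRNAs for the translation machinery start with a run of pyrimidines (the 5' TOP element) through which mTORC1 acts on them.

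2 short elements at the promoters of these genes are shown because the levels below are also given by element. A promoter window (250 bases before the annotated start to 50 after it, RefSeq, GRCh38.p14) was found for 41 of the 48 genes. The palindromic E-box CACGTG, a known binding sequence of MYC and USF proteins, was searched on both strands in the 250 bases before the start. It was present for 10 of 41 EIF genes (24.4%), against 7.73% of 27305 genes with a window. Among genes with a window that passed the filter on low counts, 10 of 38 EIF genes (26.3%) had it, against 11.0% of 10609. These 10 genes were EIF1B, EIF2B3, EIF3F, EIF3K, EIF4A3, EIF4B, EIF4E, EIF4G1, EIF4H and EIF5A2. The E-box is printed in capitals for the genes among them that lay highest relative to siNT after HOXB-AS3 KD, and for EIF4H, which did not.
EIF5A2, distal (chr3:170908807-170908836, minus strand): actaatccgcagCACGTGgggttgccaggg
EIF5A2, proximal (chr3:170908782-170908811, minus strand): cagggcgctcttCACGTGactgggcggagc
EIF2B3 (chr1:44986757-44986786, minus strand): gacagagggacaCACGTGtcgaatgctcct
EIF4E, distal (chr4:98929341-98929370, minus strand): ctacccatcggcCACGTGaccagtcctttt
EIF4E, proximal (chr4:98929188-98929217, minus strand): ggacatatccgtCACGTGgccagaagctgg
EIF3K (chr19:38619073-38619102, plus strand): cgaggaagaagtCACGTGgcagccggaaag
EIF4A3 (chr17:80147232-80147261, minus strand): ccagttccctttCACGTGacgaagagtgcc
EIF4H (chr7:74174145-74174174, plus strand): acgccgccgcacCACGTGggctgcagagcg

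The second element was a pyrimidine start, meaning a C at the annotated start followed by at least 4 further C or T bases on the strand of the gene. 9 of 41 EIF genes had it (22.0%), against 5.14% of all genes with a window. Among those that passed the filter it was 9 of 38 EIF genes (23.7%), against 7.32% of all. The 9 EIF genes were EIF2A, EIF2D, EIF2S3, EIF3D, EIF3F, EIF3K, EIF3M, EIF4A2 and EIF4B, so that EIF3F, EIF3K and EIF4B held both elements. The run is in capitals below and its first base is the annotated start, and the set shows members of eIF2, eIF3 and eIF4.
EIF2S3 (chrX:24054941-24054962, plus strand): ggggtgatttccttcCTCTTTT
EIF3D (chr22:36529157-36529181, minus strand): gcgcgcgcatgtttcCTCTTTTCCT
EIF3F (chr11:7987322-7987346, plus strand): ttccgcttccgcctcCTTCTTTCTC
EIF3K (chr19:38619173-38619195, plus strand): ttccgtttccaccacCTCTTCCT
EIF3M (chr11:32583816-32583837, plus strand): gcgcggcccagttccCTTTTCC
EIF4A2 (chr3:186783562-186783582, plus strand): gttgggcgccgctgtCTTTTC

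Total expected counts (estimated fragments per gene from RSEM, not normalized) ranged from 15998518 to 26263938 per library. HOXB-AS3 had 303 and 213 counts with siNT, 263 and 208 with siHOXA-AS3, and 67 and 76 with siHOXB-AS3 (log2 fold change -1.96, SE 0.248, edgeR adjusted p = 0.0678). HOXA-AS3 was scarce, with 38 and 18 counts with siNT, 30 and 22 with siHOXB-AS3, and 12 and 12 with siHOXA-AS3 (log2 fold change -1.09, SE 0.403, edgeR adjusted p = 0.711). Both targets lay lower in their own KD, and neither passed a threshold of 0.05 against siNT. With siHOXB-AS3 against siHOXA-AS3, HOXB-AS3 passed (log2 fold change -1.88, SE 0.248, edgeR adjusted p = 0.0291). HOXA-AS3 did not pass there (0.92, SE 0.404, edgeR adjusted p = 0.287). Of 10 colon epithelial markers, 9 had a mean of at least 1 FPKM (fragments scaled by transcript length and library size, a per-length level). The exception was CDX2, the intestinal homeobox factor, at 0.1 to 0.34 FPKM. The summed level of these markers was 4674 to 5025 FPKM with siNT, 3964 to 5926 with siHOXA-AS3 and 4300.5 to 4349 with siHOXB-AS3. KRT18 and LGALS4 make up most of this sum. Among single markers CEACAM5 fell after HOXB-AS3 KD (log2 fold change -1.63, SE 0.154, edgeR adjusted p = 0.0492). Also below 0, without passing, were EPCAM (-0.81, SE 0.140, edgeR adjusted p = 0.101), CDX2 (-0.78), KRT19 (-0.61), LGALS4 (-0.48), CDH1 (-0.46), VIL1 (-0.16) and KRT20 (-0.11). Only KRT8 (0.20) and KRT18 (0.14) were above 0, and they did not pass. Markers of fibroblasts (6 genes, 3 at 0 in every library), endothelium and smooth muscle each summed to under 1 FPKM in every library, and of 5 leukocyte markers only LYZ, which epithelial tumours can also express, exceeded a mean of 1 FPKM (its range was 718 to 1172 FPKM), with the defining marker PTPRC at 0 to 0.1. The part of these marker levels in the results below was not tested, and in bulk RNA fewer cells of a type and less RNA per cell cannot be told apart.

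HT-29 cells expressed nearly the whole set of initiation factors, at levels from 0.16 to 3095 FPKM among tested genes with siNT. 44 of the 47 EIF rows passed the filter on low counts. EIF4E1B, a germline form of the cap-binding protein, had 0 counts in all 6 libraries, which allows up to 3 counts in each. EIF5AL1, an intronless copy of EIF5A, lay at 0 to 0.02 FPKM, and EIF1AY did not pass the filter. Of the 44 tested rows, 19 had a siNT mean of at least 100 FPKM, 18 lay between 10 and 100, and 7 lay under 10. EIF1, which holds the scanning ribosome open until a start codon is met, was the highest at 3033 and 3095 FPKM in the siNT libraries and held 32.1% of the summed EIF level. EIF3H, a regulatory eIF3 subunit, followed at 1342 and 1381 FPKM, then EIF4A1, the main mRNA helicase, at 697 and 764, and EIF4G2, an eIF4G relative that does not bind the cap-binding protein, at 553 and 490. The row of EIF4A1 is joined with SENP3 and their read-through gene, so its level includes them. At the low end were EIF5A2 (2.12 and 1.71 FPKM), EIF4ENIF1 (2.58 and 2.59) and EIF4E3 (0.18 and 0.16). Neighbours in this order often overlapped, such as EIF2S2 (208 and 191 FPKM) with EIF3L (191 and 204), and EIF3M (165 and 144) with EIF6 (147 and 147), while EIF3K (399 and 424) lay above EIF3F (384 and 393) in both libraries. EIF genes with processed pseudogenes or close paralogues, such as EIF1, EIF3L and EIF5A, share sequence with other loci, and their counts depend on how RSEM divided such reads.

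**Figure D1:**
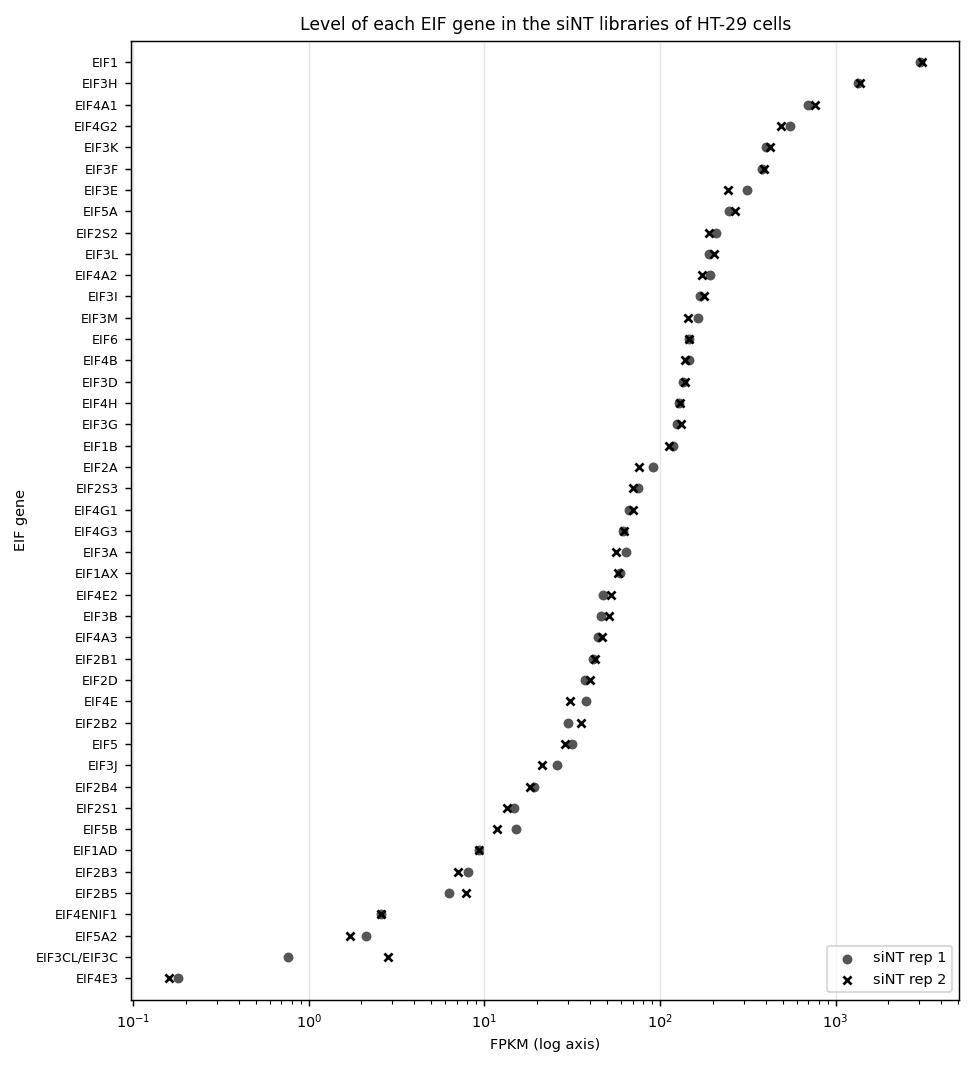
Level of each EIF gene in the 2 siNT libraries, in FPKM on a log axis, ordered by the siNT mean; filled circles are replicate 1 and crosses replicate 2. EIF1 stands at 3033 and 3095 FPKM at the top and EIF4E3 at 0.18 and 0.16 at the bottom, and EIF3CL/EIF3C is the gene whose 2 libraries lie farthest apart (0.76 and 2.82).

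No EIF gene passed an adjusted p of 0.05 in edgeR's quasi-likelihood test in any of the 3 comparisons, fitted over all 6 libraries and 13034 genes. For HOXB-AS3 KD against siNT, 8 genes passed among all 13034 (0.0614%), none of them EIF genes, and 4 EIF genes were higher and 0 lower at an unadjusted p under 0.05 (EIF5A2, EIF2B3, EIF3K and EIF3I), against 4.42% and 7.75% of all genes. For HOXA-AS3 KD against siNT, 0.0% of all genes passed, and at an unadjusted p under 0.05 the EIF genes were 1 higher (EIF5A2) and 1 lower (EIF5A), against 2.75% and 3.41%. Between the KDs 204 genes passed (1.57%), again no EIF gene, and 6 EIF genes were higher and 2 lower with siHOXB-AS3 at an unadjusted p under 0.05, against 7.9% and 10.5%. DESeq2 also called 0 EIF genes in each comparison, where it called 0.453% of all genes for HOXA-AS3 KD, 2.73% for HOXB-AS3 KD and 6.04% between the KDs. The smallest edgeR adjusted p among EIF genes was 0.614 for HOXA-AS3 KD, 0.200 for HOXB-AS3 KD and 0.0988 between the KDs. DESeq2 came closer to the threshold, with an adjusted p of 0.0526 for EIF5A2 after HOXB-AS3 KD and 0.0861 for EIF5A between the KDs. A two-sided exact permutation test of 2 libraries against 2 cannot go below 0.333, so no single-gene permutation p is given.

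As a set, the EIF genes lay slightly higher than siNT after HOXB-AS3 KD and slightly lower after HOXA-AS3 KD. The median log2 fold change over the 44 genes was 0.11 for HOXB-AS3 KD, with 30 of 44 above 0, where the median over all genes was -0.01 and 49.3% lay above 0. For HOXA-AS3 KD it was -0.06, with 15 of 44 above 0, against 0.01 and 51.3% over all genes. The EIF median of each library had its condition's sign. Relative to the siNT mean, the EIF median was 0.13 and 0.10 log2 units with siHOXB-AS3 and -0.07 and -0.08 with siHOXA-AS3, and within 0.002 of 0 with siNT. The median over all genes in the same libraries was 0.0036 and -0.0004 with siHOXB-AS3 and -0.011 and -0.038 with siHOXA-AS3. The siHOXA-AS3 libraries did not agree within genes of like transcript GC content. The 22 EIF genes of lower GC content had medians of -0.24 and 0.25 in them. For the 22 of higher GC content these medians were 0.06 and -0.23. The summed EIF level was 9533 and 9570 FPKM with siNT, 9889 and 9974 with siHOXB-AS3, and 9217 and 8920 with siHOXA-AS3. Without EIF1, its largest part, the sum was 6500 and 6474 with siNT, 7153 and 7162 with siHOXB-AS3, and 5994 and 6532 with siHOXA-AS3. The siHOXB-AS3 libraries were the highest in both sums, while the siHOXA-AS3 libraries lay below siNT in the first and on either side of it in the second. In HOXB-AS3 KD, 22 EIF genes had both libraries above both siNT libraries (30.9% of all genes did) and 11 had both below (30.9%). In HOXA-AS3 KD these counts were 3 (12.5%) and 5 (16.1%). Both KDs are compared with the same siNT libraries, so a high or low siNT value moves both.

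**Figure D2:**
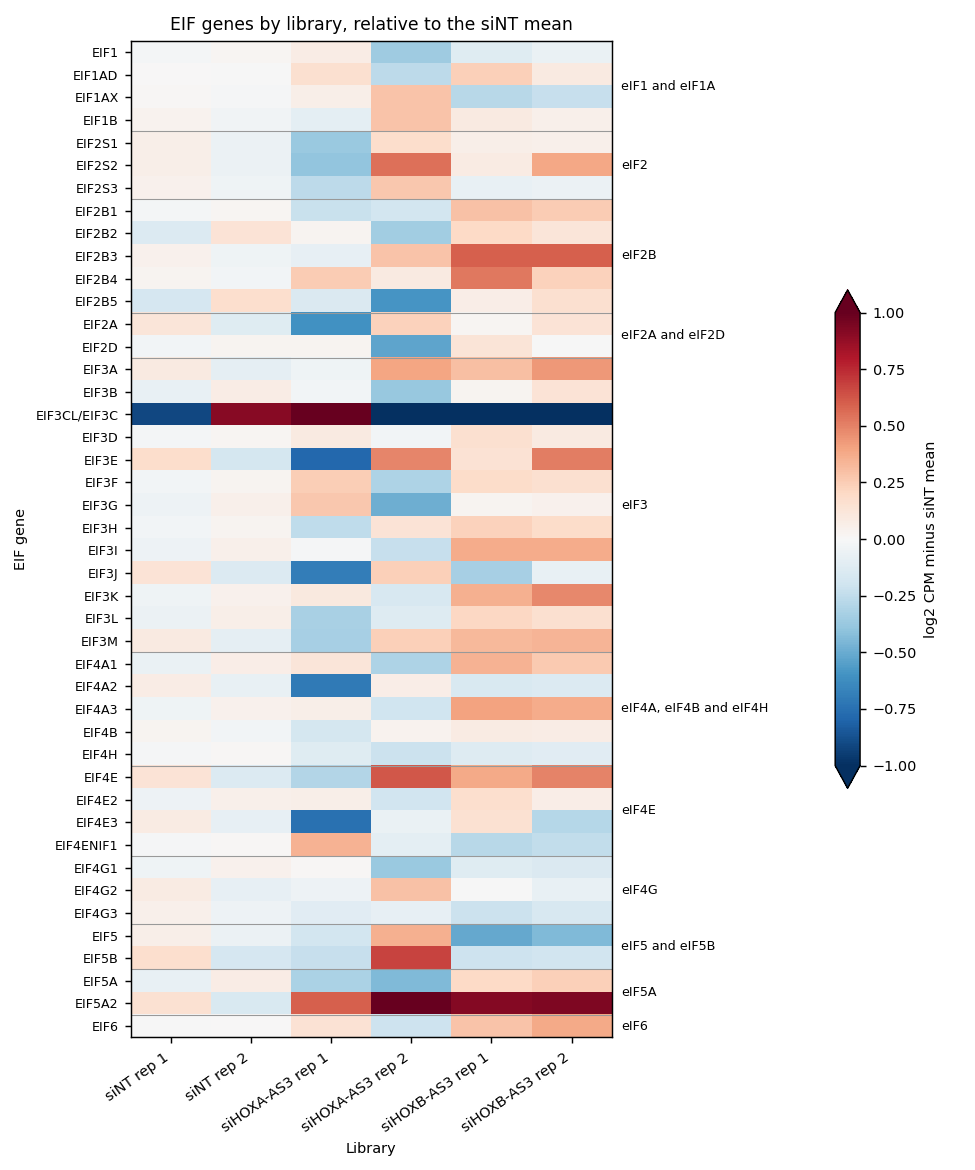
Log2 CPM (counts scaled by library size) of the 44 tested EIF genes in each of the 6 libraries minus the mean of the siNT libraries, with genes grouped by factor and colours saturating at -1 and 1. The siHOXB-AS3 columns resemble each other, with eIF2B and most eIF3 subunits at or above 0, while the siHOXA-AS3 columns have opposite signs for many genes, among them EIF3E (-0.78 and 0.49) and EIF2S2 (-0.40 and 0.55).

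eIF1 and eIF1A bind the small subunit and police start codon choice, and their genes showed no common direction. EIF1 had 3033 and 3095 FPKM with siNT, 3223 and 2388 with siHOXA-AS3, and 2736 and 2813 with siHOXB-AS3 (log2 fold changes -0.12, SE 0.170, and -0.09, SE 0.170). The siHOXB-AS3 libraries lay below both siNT libraries, and the siHOXA-AS3 libraries lay on either side of them. EIF1AX, the X-linked gene for eIF1A, had 59.0 and 57.5 FPKM with siNT, 60.4 and 70.4 with siHOXA-AS3, and 46.7 and 47.8 with siHOXB-AS3. It was above siNT in both libraries of the first KD and below in both of the second, with log2 fold changes of 0.18 (SE 0.151) and -0.25 (SE 0.151) and edgeR adjusted p = 0.975 and 0.569. EIF1B, the close copy of EIF1, made up 3.79% and 3.52% of the EIF1 and EIF1B level with siNT, 3.27% and 5.59% with siHOXA-AS3, and 4.21% and 3.95% with siHOXB-AS3.

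After HOXB-AS3 KD the 3 subunits of eIF2 had log2 fold changes of -0.07 to 0.24, and the 5 subunits of its exchange factor eIF2B had 0.11 to 0.60, without passing the test. EIF2S1, the alpha subunit that the stress kinases phosphorylate, had log2 fold changes of -0.07 (SE 0.222) for HOXA-AS3 KD and 0.05 (SE 0.222) for HOXB-AS3 KD. EIF2S2, the beta subunit, had 208 and 191 FPKM with siNT, 151 and 289 with siHOXA-AS3, and 205 and 252 with siHOXB-AS3, so the siHOXA-AS3 libraries enclosed all the others, and its log2 fold changes were 0.15 (SE 0.298) and 0.24 (SE 0.298). For eIF2B the median log2 fold change was 0.27 after HOXB-AS3 KD, with 5 of 5 above 0, and -0.15 after HOXA-AS3 KD, with 2 of 5 above 0. EIF2B3, the gamma subunit, which pairs with the catalytic subunit, had 8.06 and 7.13 FPKM with siNT, 7.27 and 9.56 with siHOXA-AS3, and 11.2 and 11.7 with siHOXB-AS3. Both siHOXB-AS3 libraries exceeded the other 4, at a log2 fold change of 0.60 against siNT (SE 0.216, edgeR unadjusted p = 0.0269, adjusted p = 0.318). EIF2B1, the regulatory alpha subunit, had 41.8 and 42.5 FPKM with siNT, 36.0 and 36.8 with siHOXA-AS3, and 50.1 and 48.5 with siHOXB-AS3 (log2 fold changes -0.21, SE 0.160, and 0.27, SE 0.159). The 3 conditions did not overlap for this gene. EIF2B5, the catalytic subunit itself, had a log2 fold change of 0.11 (SE 0.234) after HOXB-AS3 KD and -0.35 (SE 0.236) after HOXA-AS3 KD, and its libraries overlapped siNT in both. EIF2A and EIF2D, which can deliver initiator tRNA without eIF2, had log2 fold changes of 0.07 (SE 0.271) and 0.06 (SE 0.221) after HOXB-AS3 KD and of -0.13 (SE 0.271) and -0.22 (SE 0.221) after HOXA-AS3 KD.

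eIF3, the largest factor, had 11 of 13 rows above 0 after HOXB-AS3 KD (median log2 fold change 0.18) and 3 of 13 above 0 after HOXA-AS3 KD (median -0.03). In 8 rows both siHOXB-AS3 libraries exceeded both siNT libraries (30.9% of all genes did) and in 1 row both lay below (30.9%). EIF3K, a small subunit, had 399 and 424 FPKM with siNT, 441 and 361 with siHOXA-AS3, and 513 and 557 with siHOXB-AS3. The siHOXB-AS3 libraries were the highest of the 6, with a log2 fold change of 0.42 (SE 0.156, edgeR unadjusted p = 0.0312, adjusted p = 0.337). EIF3I, a WD40 subunit that joins the EIF3A and EIF3B core, had 169 and 179 FPKM with siNT, 172 and 147 with siHOXA-AS3, and 218 and 217 with siHOXB-AS3 (log2 fold change 0.37, SE 0.149, edgeR adjusted p = 0.373, for HOXB-AS3 KD). EIF3L, another subunit, had 191 and 204 FPKM with siNT, 157 and 179 with siHOXA-AS3, and 221 and 213 with siHOXB-AS3. Here the siHOXA-AS3 libraries lay below and the siHOXB-AS3 libraries above siNT, at log2 fold changes of -0.22 (SE 0.147) and 0.18 (SE 0.147). The abundant EIF3H had 1139 and 1490 FPKM with siHOXA-AS3 and 1554 and 1491 with siHOXB-AS3 (log2 fold change 0.21, SE 0.165, for HOXB-AS3 KD). EIF3J, the loosely held subunit, was one of the 2 rows below 0 after HOXB-AS3 KD, at -0.21 (SE 0.316). The other was EIF3CL/EIF3C.

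The EIF3CL/EIF3C row cannot be read alone. It held 61.7 and 137 expected counts with siNT, 293 and 35.6 with siHOXA-AS3, and 50.5 and 32.9 with siHOXB-AS3, although EIF3C is a core subunit of a complex whose other genes are abundant. 8 further rows carry EIF3C or EIF3CL under transcript accessions, and 1 of these held most of the counts (a mean of 91.1 FPKM against 1.59 for the Entrez row). The near-identical copies were thus split among rows. Summed over the 9 rows the level was 91.2 and 97.4 FPKM with siNT, 127 and 90.7 with siHOXA-AS3, and 88.6 and 87.9 with siHOXB-AS3. The log2 fold changes of the summed row were 0.22 (SE 0.188) for HOXA-AS3 KD and -0.05 (SE 0.188) for HOXB-AS3 KD, where the single row gave 0.47 (SE 0.839) and -1.53 (SE 0.898). Summing was chosen after the values had been seen.

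In the cap-binding complex, the helicase and the cap-binding protein had values above siNT after HOXB-AS3 KD and the scaffold did not. EIF4A1 had 697 and 764 FPKM with siNT, 795 and 586 with siHOXA-AS3, and 900 and 842 with siHOXB-AS3 (log2 fold change 0.30, SE 0.177, edgeR adjusted p = 0.567, for HOXB-AS3 KD). Its paralogue EIF4A2 had 194 and 173 FPKM with siNT, 112 and 191 with siHOXA-AS3, and 160 and 160.5 with siHOXB-AS3, below both siNT libraries (log2 fold change -0.15, SE 0.251). EIF4A2 made up 21.7% and 18.5% of the summed level of its row and the EIF4A1 row with siNT. It made up 15.12% and 16.01% with siHOXB-AS3, and 12.3% and 24.6% with siHOXA-AS3. The EIF4A1 row also holds SENP3 and the read-through gene, so these are not shares of the paralogues alone. EIF4A3, a relative that works in the exon junction complex on spliced mRNA, had 44.5 and 47.0 FPKM with siNT, 47.6 and 39.6 with siHOXA-AS3, and 58.6 and 57.1 with siHOXB-AS3 (log2 fold change 0.39, SE 0.173, edgeR adjusted p = 0.450). The siHOXB-AS3 libraries were the highest of the 6. EIF4E, which binds the cap, had 38.1 and 30.8 FPKM with siNT, 27.9 and 53.1 with siHOXA-AS3, and 43.4 and 46.9 with siHOXB-AS3. It lay above siNT in both siHOXB-AS3 libraries (log2 fold change 0.43, SE 0.295, edgeR adjusted p = 0.625), and the siHOXA-AS3 libraries were the lowest and the highest of all. EIF4E2, the form that represses capped mRNA, had a log2 fold change of 0.12 (SE 0.181), and EIF4ENIF1, the importer of eIF4E into the nucleus, had -0.26 (SE 0.240) after HOXB-AS3 KD. The 3 eIF4G genes had log2 fold changes of -0.13 (EIF4G1, SE 0.170), -0.04 (EIF4G2, SE 0.163) and -0.19 (EIF4G3, SE 0.142) after HOXB-AS3 KD, and EIF4G3 held 46.7% to 48.7% of the EIF4G1 and EIF4G3 level in every library. EIF4B and EIF4H, which assist the helicase, had log2 fold changes of 0.08 (SE 0.144) and -0.12 (SE 0.138).

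EIF5 and EIF5B, which act once the start codon has been found, had values below siNT after HOXB-AS3 KD that did not pass the test, and EIF6 had values above it. EIF5, the GTPase-activating protein for eIF2, had 31.4 and 28.7 FPKM with siNT, 26.3 and 37.9 with siHOXA-AS3, and 20.4 and 21.4 with siHOXB-AS3. The siHOXB-AS3 libraries were the lowest of the 6, at a log2 fold change of -0.48 (SE 0.206, edgeR unadjusted p = 0.0547, adjusted p = 0.429). EIF5B, the GTPase that joins the large subunit, had 15.1 and 11.9 FPKM with siNT, 11.4 and 21.2 with siHOXA-AS3, and 11.3 and 11.3 with siHOXB-AS3 (log2 fold change -0.21, SE 0.306). EIF6, which keeps the large subunit from joining too early, had 147 and 147 FPKM with siNT, 162 and 128 with siHOXA-AS3, and 175 and 184 with siHOXB-AS3 (log2 fold change 0.33, SE 0.172, edgeR adjusted p = 0.517). Its siHOXB-AS3 libraries exceeded the other 4.

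The 2 expressed eIF5A genes, whose hypusinated products help the ribosome through difficult peptide bonds, lay on opposite sides of siNT after HOXA-AS3 KD, without passing the test. EIF5A2 had 2.12 and 1.71 FPKM with siNT, 2.87 and 4.00 with siHOXA-AS3, and 3.50 and 3.52 with siHOXB-AS3. All 4 KD libraries exceeded both siNT libraries, with a fold change of 1.80 after HOXA-AS3 KD (log2 0.85, SE 0.243, edgeR unadjusted p = 0.0106, adjusted p = 0.614) and of 1.89 after HOXB-AS3 KD (log2 0.92, SE 0.243, edgeR unadjusted p = 0.00714, adjusted p = 0.200). Of the 44 EIF genes these were the largest values above 0 in both comparisons. EIF5A2 also had the lowest transcript GC content of these genes (34.3%). With a trend on GC content removed, its log2 fold changes were 0.69 after HOXA-AS3 KD and 0.80 after HOXB-AS3 KD. EIF5A had 246 and 269 FPKM with siNT, 207 and 189 with siHOXA-AS3, and 288 and 293 with siHOXB-AS3, so that no 2 conditions overlapped. Its log2 fold changes were -0.38 (SE 0.145, edgeR adjusted p = 0.736) and 0.22 (SE 0.144, edgeR adjusted p = 0.611). EIF5A2 remained a small part of the pair, at 0.86% and 0.63% with siNT, 1.37% and 2.07% with siHOXA-AS3, and 1.20% and 1.19% with siHOXB-AS3. Of the 44 EIF genes, 2 had all 4 KD libraries above both siNT libraries and 2 had all 4 below (4.55% each), against 4.63% and 6.77% of all genes.

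**Figure D3:**
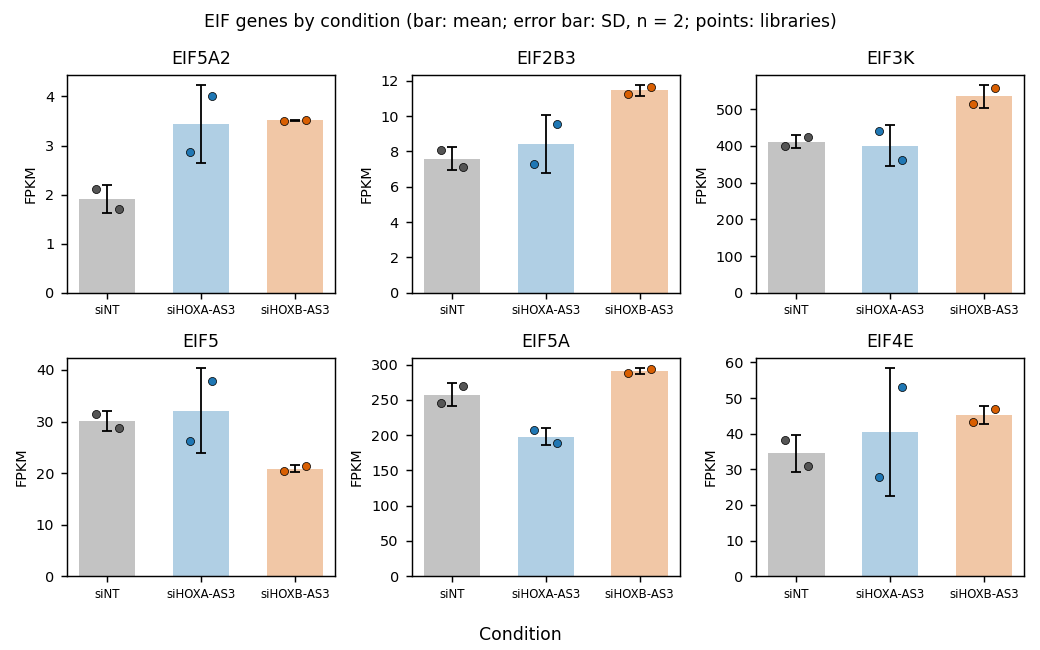
FPKM of 6 EIF genes by condition, where bars are means, error bars the SD of 2 libraries and points the libraries. EIF5A2 lies above siNT in all 4 KD libraries, EIF2B3 and EIF3K are highest and EIF5 lowest with siHOXB-AS3, EIF5A has 3 separate levels, and the siHOXA-AS3 points of EIF4E (27.9 and 53.1) enclose the rest.

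**Figure D4:**
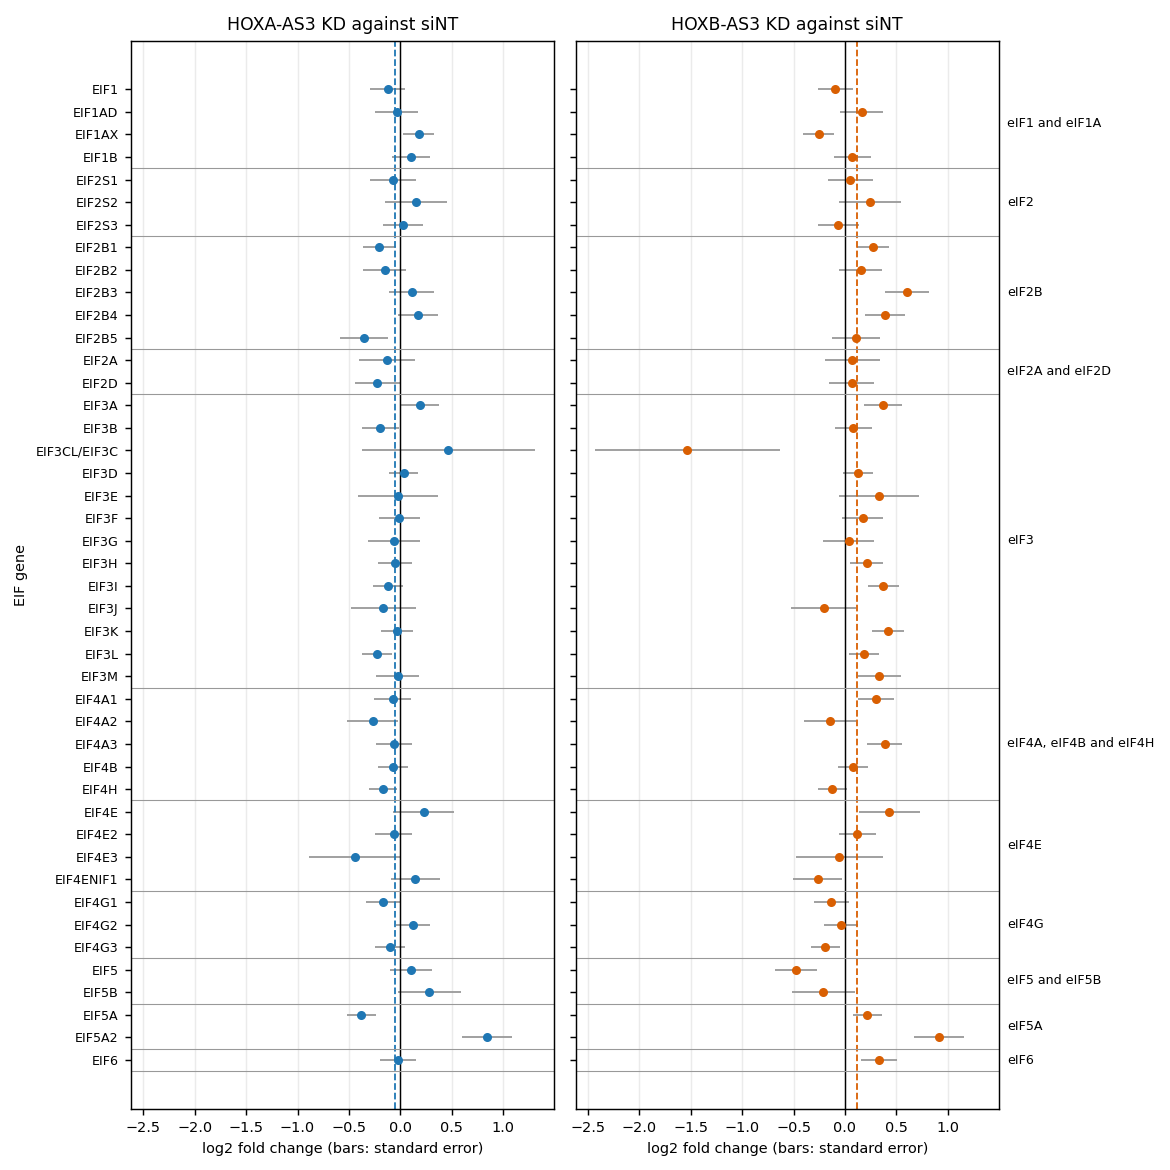
Log2 fold changes against siNT with their standard errors for the 44 tested EIF genes, grouped by factor, with HOXA-AS3 KD on the left and HOXB-AS3 KD on the right; dashed lines are the EIF medians (-0.06 and 0.11). EIF5A2 stands to the right in both panels, and EIF3CL/EIF3C has the longest error bars.

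Compared directly, HOXB-AS3 KD lay above HOXA-AS3 KD for 34 of 44 EIF genes (48.9% of all genes), with a median log2 difference of 0.18 against -0.01 over all genes. Both siHOXB-AS3 libraries exceeded both siHOXA-AS3 libraries for 16 EIF genes (22.8% of all genes) and lay below them for 5 (22.5%). The difference was 0.60 for EIF5A (SE 0.145, edgeR unadjusted p = 0.00439, adjusted p = 0.0988), 0.49 for EIF3I (SE 0.149, edgeR adjusted p = 0.152) and 0.48 for EIF2B1 (SE 0.160, edgeR adjusted p = 0.179). It was -0.58 for EIF5 (SE 0.207, edgeR adjusted p = 0.203) and -0.43 for EIF1AX (SE 0.151, edgeR adjusted p = 0.196). All 5 subunits of eIF2B and all 5 genes of eIF4A, eIF4B and eIF4H were above 0 here, with medians of 0.46 and 0.15, and both genes of the eIF5 and eIF5B group were below 0.

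How many EIF genes passed depended on whether the siHOXA-AS3 libraries shared the estimate of the spread and on whether a GC trend was removed. Over the 44 EIF genes, the log2 difference between replicates had an SD of 0.65 with siHOXA-AS3, 0.32 with siNT and 0.15 with siHOXB-AS3. The siHOXA-AS3 difference ran with transcript GC content (a description over genes that share 2 libraries; Pearson r = 0.73 and Spearman rho = 0.81 over 44 EIF genes, 0.74 and 0.81 over 12875 genes). The siNT difference ran with GC content in the opposite direction (-0.48 and -0.75 over the EIF genes, -0.37 and -0.57 over all), and the siHOXB-AS3 difference had 0.22 and 0.18 over the EIF genes. After EIF3CL/EIF3C, EIF3E differed most between the siHOXA-AS3 libraries, with 159 and 385 FPKM. In the siHOXA-AS3 libraries the 22 EIF genes of lower GC had medians of -0.24 and 0.25 relative to siNT and the 22 of higher GC had 0.06 and -0.23. With siHOXB-AS3 the corresponding medians were 0.07 and 0.05 at lower GC and 0.18 and 0.15 at higher GC. When only the siNT and siHOXB-AS3 libraries were fitted, 13 EIF genes passed an edgeR adjusted p of 0.05, 11 higher (11.2% of all genes) and 2 lower (11.8%). The higher ones were EIF2B3, EIF2B4, EIF3A, EIF3I, EIF3K, EIF3M, EIF4A1, EIF4A3, EIF4E, EIF5A2 and EIF6, and the lower ones EIF1AX and EIF5. Fitting only the groups compared gave 0 EIF genes for HOXA-AS3 KD (0.0% of all genes) and 0 between the KDs (0.0307%). With a loess trend on GC content removed from each library, 8 of these 13 passed (EIF2B3, EIF3A, EIF3I, EIF3K, EIF4A1, EIF4A3, EIF5A2 and EIF5; 15.2% of all genes passed). That correction gave 0 EIF genes for HOXA-AS3 KD (4.9% of all genes) and 14 between the KDs (27.4%). Leaving out siHOXA-AS3 replicate 1 or replicate 2 gave the same 13 genes for HOXB-AS3 KD (23.0% of all genes each time). For HOXA-AS3 KD it gave 18 (30.6%) and 8 (18.1%), of which 3 were called both times, EIF2S2 and EIF3E with opposite signs and EIF5A2 with the same sign. Between the KDs it gave 23 (38.3%) and 19 (36.9%).

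**Figure D5:**
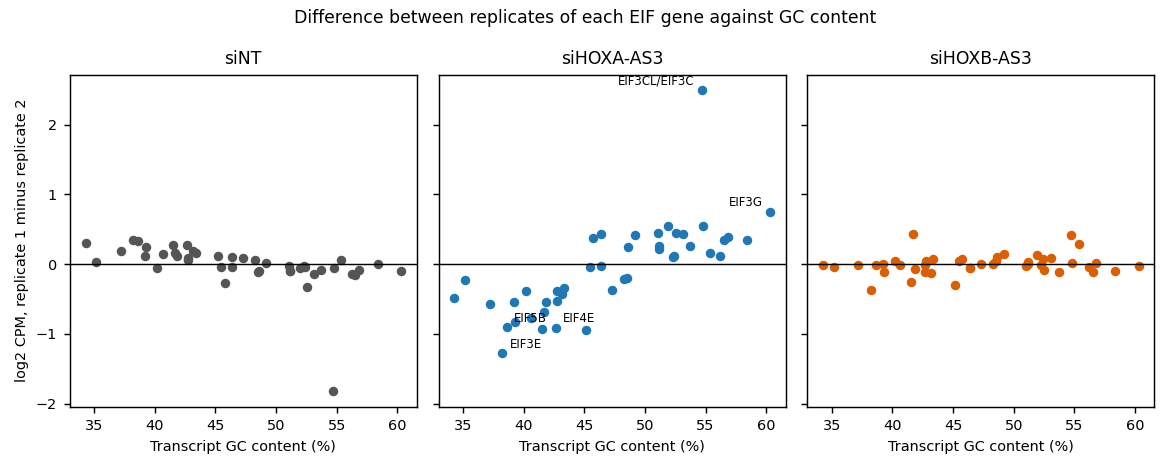
Log2 CPM of replicate 1 minus replicate 2 for each of the 44 EIF genes against the GC content of its transcript, in 1 panel per condition. The siHOXA-AS3 points climb with GC content (Pearson r = 0.73), from EIF3E at the bottom to EIF3G at the right, while the siHOXB-AS3 points stay near 0; EIF3CL/EIF3C stands apart in the siNT and siHOXA-AS3 panels.

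Set against the promoter elements, the 10 tested EIF genes with an E-box had a median log2 fold change of 0.28 after HOXB-AS3 KD with 8 above 0, and the 28 without one had 0.07 with 16 above 0. Over all tested genes with a window the medians were 0.03 with the E-box (1154 genes) and -0.01 without it (9203 genes). EIF5A2 and EIF2B3, printed above, had 0.92 and 0.60, whereas EIF4G1 and EIF4H, with the same letters, had -0.13 and -0.12. After HOXA-AS3 KD the EIF medians were -0.02 with and -0.07 without the E-box, and between the KDs 0.17 with and 0.19 without it. The 9 EIF genes with a pyrimidine start and the 29 without it both had a median of 0.08 after HOXB-AS3 KD. These are descriptions of letters in a window and were not tested. The motifs were chosen with earlier results of these data known, and the printed E-box genes for their values after HOXB-AS3 KD. The contrast by element therefore cannot count as independent of those values.

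The wider pathway held 47 listed genes, of which 45 were tested and 0 passed an edgeR adjusted p of 0.05 in any comparison. DESeq2 called 0 for HOXA-AS3 KD, 2 for HOXB-AS3 KD (MKNK2 and PDCD4) and 4 between the KDs (these with PPP1R15A and TSC1). Of all genes it called 0.453%, 2.73% and 6.04% in these comparisons. With only the groups compared, edgeR called 4 pathway genes higher (11.2% of all genes) and 7 lower (11.8%) after HOXB-AS3 KD. It called 0 for HOXA-AS3 KD (0.0% of all genes) and 0 between the KDs (0.0307%). With the GC trend removed it called 4 higher and 5 lower after HOXB-AS3 KD, where 15.2% of all genes passed in either direction. That correction gave 0 higher and 3 lower after HOXA-AS3 KD (4.9% of all genes in either direction). Between the KDs it gave 8 higher and 5 lower (27.4%). The median log2 fold change of the pathway genes was -0.02 in both KDs. At an unadjusted p under 0.05, 2 genes were higher and 3 lower after HOXB-AS3 KD, against 4.42% and 7.75% of all genes, which is near the background for 45 genes. They are described because the rule names them. PPP1R15A, the phosphatase subunit that reverses eIF2 phosphorylation, had 46.6 and 60.3 FPKM with siNT, 68.5 and 32.6 with siHOXA-AS3, and 94.6 and 111 with siHOXB-AS3 (log2 fold change 0.99, SE 0.343, edgeR adjusted p = 0.303). TSC1, a brake on mTORC1, had 4.72 and 4.76 FPKM with siNT, 4.00 and 3.52 with siHOXA-AS3, and 6.27 and 6.06 with siHOXB-AS3 (0.43, SE 0.176, edgeR adjusted p = 0.392). Both lay above siNT in each siHOXB-AS3 library. MKNK2, a kinase of eIF4E, had 77.9 and 85.9 FPKM with siNT, 115 and 58.1 with siHOXA-AS3, and 31.2 and 28.4 with siHOXB-AS3 (log2 fold change -1.27, SE 0.283, edgeR adjusted p = 0.152). PDCD4, an inhibitor of eIF4A whose row also holds a second gene identifier, had 7.95 and 6.54 FPKM with siNT, 5.90 and 11.7 with siHOXA-AS3, and 2.76 and 3.65 with siHOXB-AS3 (-1.13, SE 0.352, edgeR adjusted p = 0.262). PABPC4, a cytoplasmic poly(A)-binding protein, had 46.3 and 43.3 FPKM with siNT, 29.8 and 28.3 with siHOXA-AS3, and 25.9 and 27.5 with siHOXB-AS3. It lay below siNT in all 4 KD libraries, at -0.62 (SE 0.157, edgeR adjusted p = 0.529) and -0.70 (SE 0.157, edgeR adjusted p = 0.151). After HOXA-AS3 KD 0 pathway genes were higher at that level (2.75% of all genes) and 2 were lower (3.41%), PABPC4 and the row that joins EEF1E1 with 4 other gene identifiers (-0.37, SE 0.154, edgeR adjusted p = 0.780). Between the KDs 4 pathway genes were higher with siHOXB-AS3 (7.9% of all genes) and 4 lower (10.5%) at that level, the former adding PAIP2, an inhibitor of poly(A)-binding protein (log2 difference 0.94, SE 0.381, edgeR adjusted p = 0.255), and the latter RHEB, the activator of mTORC1 (-0.61, SE 0.223, edgeR adjusted p = 0.212), and EIF4EBP2, a binding protein of eIF4E (-0.36, SE 0.143, edgeR adjusted p = 0.239). PAIP2 had 181 and 154 FPKM with siNT, 57.7 and 140 with siHOXA-AS3, and 167 and 199 with siHOXB-AS3, so its siHOXA-AS3 libraries were the lowest. EIF4EBP1, the best known binding protein of eIF4E, had log2 fold changes of 0.13 (SE 0.239) and 0.02 (SE 0.239). The 7 tested rows with EEF symbols include the kinase gene EEF2K and the joined rows of EEF1E1 and EEF1G, but not EEF1A1. These rows had a median of -0.19 after HOXA-AS3 KD, with 0 of 7 above 0. After HOXB-AS3 KD their median was 0.06, with 4 of 7 above 0.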

How the data were processed

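Per the labels, the authors extracted polyA RNA with an RNeasy kit, made Lexogen SENSE mRNA libraries and quantified them with RSEM (the labels name hg19). No aligner, RSEM version or strand setting is given in the sources consulted. The files the authors deposited give an expected count, a TPM and an FPKM per gene. TPM is scaled to a fixed sum and was not used for tests. The paper's methods state another siRNA dose and extraction reagent than the labels. Of 27434 rows, 627 join several genes (6.02% to 6.62% of counts) and 1380 are named by transcript accession. EIF2S3B was not analysed here, and EEF1A1 and GSPT2 of the pathway list were not tested.

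Rounded expected counts were tested with edgeR 4.0.16 in R 4.3.3 (filterByExpr with a minimum count of 10, TMM, robust quasi-likelihood test over all 6 libraries, Benjamini-Hochberg adjustment over 13034 genes, threshold 0.05) for 3 comparisons. Log2 CPM used a prior count of 2. Alternatives were DESeq2 1.42.0, RLE size factors, library totals, no filter, a mean FPKM of at least 1, only the groups compared, a replicate block, limma-trend (limma 3.58.1) on log2(FPKM + 0.1) and log2(FPKM + 1), a loess GC trend (span 0.3) removed, and each library left out. The calling step was run on simulated counts with changes larger than those of most EIF genes and with no GC trend. It therefore does not show how changes as small as these are called. Promoter windows came from RefSeq (GRCh38.p14), whose coordinates were not joined to counts.

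By rule, EIF genes averaging 1 FPKM or more were named for an unadjusted p below 0.05, for being among the 4 highest or 4 lowest fold changes of a comparison, or for the highest level of their factor. Pathway genes were named by the same p. Others were named after their values had been seen. Members, lists and motifs were chosen with earlier results of these data known.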

Additional observations from a re-analysis of the deposited data

Results flagged for a closer look

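In 4 EIF genes the libraries of the KDs lay on opposite sides of both siNT libraries, with every siHOXA-AS3 library on one side and every siHOXB-AS3 library on the other. For EIF5A the log2 difference between HOXB-AS3 KD and HOXA-AS3 KD was 0.60, for EIF2B1 0.48 and for EIF3L 0.41, with siHOXB-AS3 above siNT and siHOXA-AS3 below it. For EIF1AX it was -0.43, with siHOXB-AS3 below siNT and siHOXA-AS3 above it. The test of the difference itself gave edgeR adjusted p = 0.0988, 0.179, 0.207 and 0.196, respectively, so none passed 0.05. These are 9.09% of the 44 EIF genes, and 9.05% of all 13034 tested genes (1179 genes) had the same arrangement. The siHOXA-AS3 libraries differed from each other with GC content, and the part of that difference in these 4 genes was not tested beyond the correction for GC content. After that correction EIF5A, EIF2B1 and EIF3L passed an edgeR adjusted p of 0.05 between the KDs and EIF1AX did not. Of all genes 27.4% passed there.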

How the results depend on the processing

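Of 451 values for named EIF genes under an alternative (28 pairs of gene and comparison), 385 kept direction and side of the threshold, 60 kept direction and passed it, and 6 reversed, 5 when a siHOXA-AS3 library was left out and 1 when a siNT library was. For HOXA-AS3 KD, leaving out a library gave -1.30 (without siHOXA-AS3 replicate 1) to 1.65 for EIF3CL/EIF3C, which was at -0.21 without siNT replicate 1, -0.70 to 0.067 for EIF4A2 (the last without siHOXA-AS3 replicate 1), and -0.29 to 0.61 for EIF4E and -0.24 to 0.66 for EIF5B (the lower values without siHOXA-AS3 replicate 2). Between the KDs it gave -0.88 to 0.018 for EIF5B (the last without siHOXA-AS3 replicate 2). The cause was not tested.

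EIF genes called went from 0 to 13 for HOXB-AS3 KD when only the groups compared were fitted and to 8 with the GC trend removed, and to 14 between the KDs with the GC trend removed. Leaving out a library gave 0 to 18 EIF genes for HOXA-AS3 KD, 0 to 13 for HOXB-AS3 KD and 0 to 23 between the KDs, with calls made only without a siHOXA-AS3 replicate (18, 13 and 23 without replicate 1, and 8, 13 and 19 without replicate 2). Where 1 library was left, it was assumed to vary like the other conditions.

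Over all genes, for HOXA-AS3 KD, HOXB-AS3 KD and between the KDs in this order, DESeq2 called 59, 356 and 787, no filter 24, 265 and 706, and the GC trend removed 639, 1979 and 3577. Only the groups compared gave 2994 for HOXB-AS3 KD and 4 between the KDs. Limma-trend gave 1 for HOXA-AS3 KD with a pseudocount of 0.1, and between the KDs 93 with 0.1 and 76 with 1. Leaving out a library gave 0 to 3994, 0 to 2998 and 0 to 4995.

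The EIF median kept its sign in every alternative run. For HOXA-AS3 KD it was -0.039 with DESeq2 and with RLE size factors, -0.036 with no filter, -0.042 with a mean FPKM of at least 1, -0.069 with library totals, -0.030 with only the groups compared, -0.032 with the GC trend removed, and -0.079 and -0.069 with limma-trend. For HOXB-AS3 KD it was 0.067 with library totals, 0.10 with the FPKM minimum, 0.072 and 0.068 with limma-trend and 0.14 with the GC trend removed. Between the KDs it was 0.15 with library totals, 0.17 with no filter, 0.15 with the FPKM minimum, 0.16 and 0.15 with limma-trend, and 0.16 with the GC trend removed. Leaving out a library gave -0.087 to -0.018, 0.10 to 0.16 and 0.10 to 0.18.

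With the replicate number as a block, 0 genes were called for either KD against siNT and 10 between the KDs, and 0 EIF genes. The deviations of same-numbered libraries correlated over genes at -0.35 (siNT with siHOXA-AS3), -0.14 (siNT with siHOXB-AS3) and 0.15 (siHOXA-AS3 with siHOXB-AS3). In siNT and siHOXA-AS3 these deviations also ran with GC content, in opposite directions. The correlations therefore cannot show whether same-numbered libraries were paired. The labels give only a replicate number, and the block changed no EIF call.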
